A study of Mus musculus with 10 samples.

Results

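The immediate early response genes described here are *Fos*, *Fosb*, *Jun*, *Junb*, *Egr1*, *Egr2*, *Ier2*, *Atf3*, *Dusp1* and *Nr4a1*, the 10 of 35663 gene entries in the expression table whose symbol was on a list chosen by function and not by level. RNA-seq was carried out on whole mouse kidneys at E13.5, an embryonic stage at which the kidney is branching, in the C57/b6 strain, to ask how loss of the secreted guidance cue Netrin 1 from the stroma alters kidney gene expression. The groups were 4 wild-type libraries, 3 Foxd1GC control libraries that carry the Foxd1-Cre allele, and 3 Ntn1SPKO libraries that carry the same allele with both copies of *Ntn1* flanked by loxP sites. Cre from this allele acts in stromal progenitors and their descendants, so that epithelial, endothelial and blood cells of a mutant kidney keep the *Ntn1* gene, and controls share the allele but not the deletion. The allele also brings the loss of a *Foxd1* copy, per the study, in controls and mutants but not in wild-type kidneys. The labels number the replicates without saying whether each is a separate embryo, so p-values measure the spread between these libraries.

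Immediate early genes are transcribed within minutes of a stimulus, from factors that are already present in the cell. Growth factors, stress and tissue handling all act on them through MAP kinases, serum response factor and CREB, and their messages are short-lived. Most encode transcription factors: FOS and JUN proteins pair to form AP-1, EGR proteins are zinc-finger factors, and NR4A proteins are nuclear receptors. *Dusp1* belongs instead to the genes that end the response.

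The sequences upstream of 4 members are shown because they carry the kinds of element through which these stimuli act. They are the 250 bases before the RefSeq start on GRCm38.p6, 5′ to 3′ on the strand of the gene, and capitals mark the matches named here. The table held 8 of the 10 members, without *Egr1* and *Ier2*. *Fos* (chr12:85473640-85473889, plus strand) has TGACG, the core of a cAMP response element, at 66 to 62 and again at 129 to 125 bases before the start, and TATAAA at 33 to 28.
Fos: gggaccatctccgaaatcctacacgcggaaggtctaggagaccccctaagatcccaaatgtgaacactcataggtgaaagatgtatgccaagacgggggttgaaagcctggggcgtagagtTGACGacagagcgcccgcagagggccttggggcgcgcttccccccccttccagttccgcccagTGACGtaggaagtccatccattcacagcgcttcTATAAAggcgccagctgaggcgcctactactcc
*Jun* (chr4:95052223-95052472, minus strand) has TGACATCA, a match to the 8-letter AP-1-like word TGANNTCA, at 45 to 38 bases before the start.
Jun: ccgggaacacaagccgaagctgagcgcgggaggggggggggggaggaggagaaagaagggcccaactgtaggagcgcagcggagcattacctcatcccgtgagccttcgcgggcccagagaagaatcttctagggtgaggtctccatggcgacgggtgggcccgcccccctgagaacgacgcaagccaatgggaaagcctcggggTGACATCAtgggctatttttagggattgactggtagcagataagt
*Egr2* (chr10:67537619-67537868, plus strand) has a CArG box, the element bound by serum response factor, at 72 to 63 bases before the start, for the 1 of 5 listed starts nearest to its longest annotated coding transcript.
Egr2: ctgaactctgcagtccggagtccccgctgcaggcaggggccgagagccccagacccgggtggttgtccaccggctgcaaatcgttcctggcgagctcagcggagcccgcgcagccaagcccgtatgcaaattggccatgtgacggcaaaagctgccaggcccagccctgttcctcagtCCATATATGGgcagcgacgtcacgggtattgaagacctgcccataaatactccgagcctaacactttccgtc
*Dusp1* (chr17:26508473-26508722, minus strand) has TGACGTCA, the full cAMP response element, at 143 to 136 bases before the start.
Dusp1: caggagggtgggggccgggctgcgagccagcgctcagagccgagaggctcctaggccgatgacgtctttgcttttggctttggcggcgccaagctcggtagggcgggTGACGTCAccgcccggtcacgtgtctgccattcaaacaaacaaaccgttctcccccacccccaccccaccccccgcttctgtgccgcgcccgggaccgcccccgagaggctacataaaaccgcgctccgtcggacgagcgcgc
On either strand, TGACG was found in 7 of the 8 windows and in 17.8% of 32851 windows of this length in the table. The CArG box was in 1 of 8 (1.47% of all), TGACGTCA in 1 (1.55%), TGANNTCA in 2 (11.9%), TATAAA in 1 (12.4%) and TGANTCA in 0 (6.75%). TGANNTCA includes TGACGTCA, and TGACG is part of it. These are matches of letters, and binding was not measured. Elements farther upstream than 250 bases were not searched, so a window without a match does not mean that the gene lacks the element.

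The values are FPKM, fragments per kilobase of coding sequence and per M fragments (1 M is 1000000), so levels of different genes can be compared. Summed FPKM was 795829 to 1002638 over the 10 libraries, and depth, estimated roughly from the steps between low values, was 28 to 32 M fragments. *Ntn1* was 10.7 to 16.3 FPKM in Ntn1SPKO, 24.2 to 51.5 in Foxd1GC control and 27.1 to 46.3 in wild-type libraries, so every mutant library was below every other library. Kidney markers were present in all libraries, with the nephron progenitor gene *Six2* at 63.1 to 96.4 and the stromal gene *Foxd1* at 14.2 to 30.7 FPKM. Foxd1GC control replicate 3 stood apart in skeletal muscle genes, which summed to 96.4 to 1050 FPKM in controls, 141 to 241 in wild-type and 55.9 to 115 in Ntn1SPKO libraries. Y-linked transcripts were present in all 3 Ntn1SPKO libraries but only in wild-type replicate 3 and Foxd1GC control replicate 2.

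The 10 genes covered a wide range of levels. *Ier2*, a short nuclear protein gene induced by serum, was the highest at 27.8 ± 2.36 FPKM (mean ± SD, n=10 libraries), followed by the AP-1 subunit *Jun* at 18.6 ± 2.46, *Egr1* at 10.4 ± 0.689 and *Dusp1*, a phosphatase that switches off MAP kinases, at 5.29 ± 0.665. *Nr4a1*, an orphan nuclear receptor, came next at 2.15 ± 0.329 FPKM, and down to this gene the ranges of neighbours in the order did not overlap. The stress factor *Atf3* was at 1.93 ± 0.524 and *Junb* at 1.72 ± 0.401 FPKM, and from *Nr4a1* on neighbours overlapped. *Fos* was at 0.70 ± 0.283, *Egr2* at 0.419 ± 0.480 and *Fosb* at 0.0816 ± 0.0386 FPKM. Rough fragment numbers set the precision: *Fos* had 13 to 46 fragments per library, *Egr2* 3 to 66 and *Fosb* 0 to 5, against 452 to 657 for *Jun*. *Fosb* ranged from 0.01 to 0.147 FPKM and was therefore at the limit of what this depth can measure, and it did not reach the mean of 0.5 FPKM needed for the tests. *Egr1* stayed within 9.43 to 11.7 FPKM and *Nr4a1* within 1.79 to 2.74 FPKM over all 10 libraries.

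**Figure D1:**
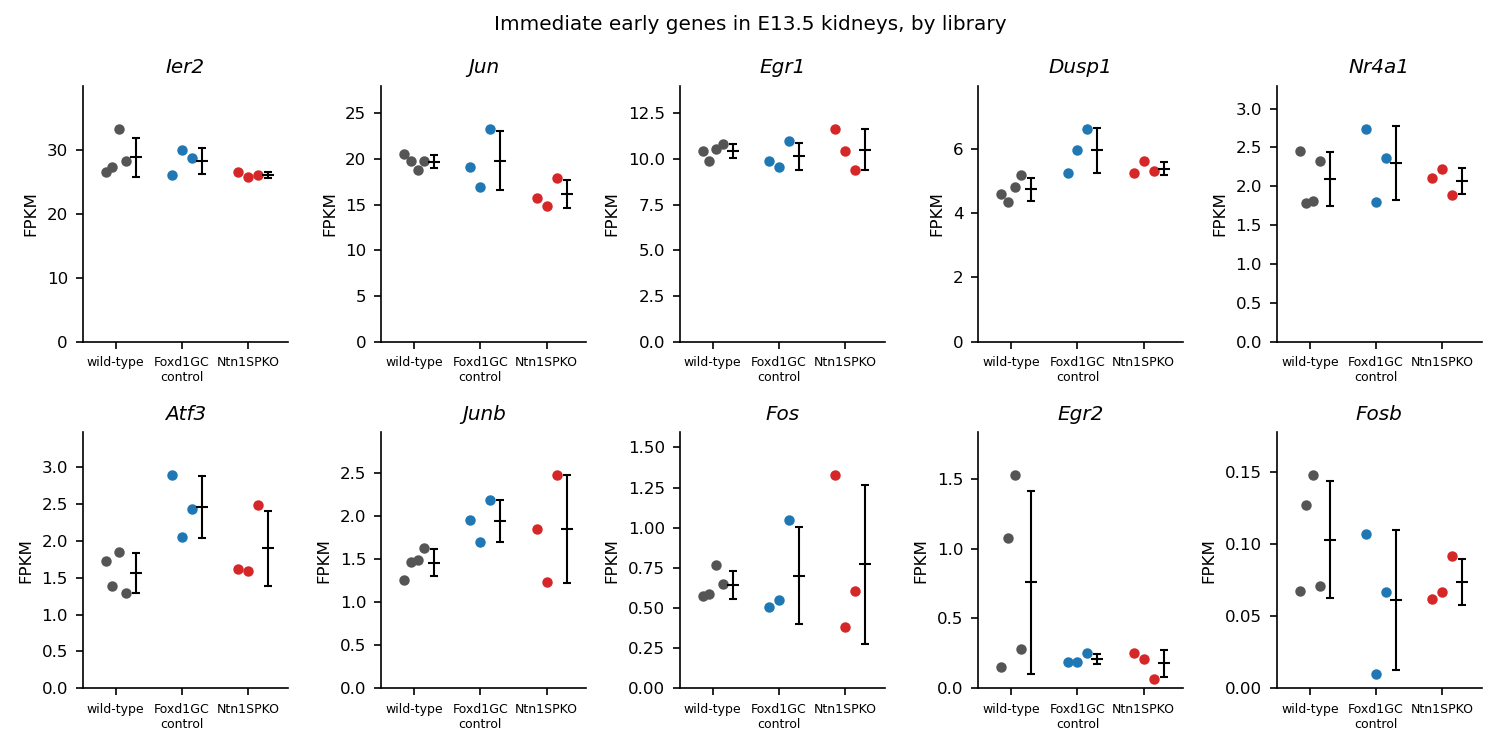
FPKM of each immediate early gene (y axis, from 0) in the 10 libraries, by group, with black bars for the mean ± SD of each group. Points of Jun for Ntn1SPKO (14.9 to 17.9) lie below all wild-type points (18.7 to 20.5), and the high Egr2 points are 2 wild-type libraries at 1.08 and 1.52.

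Within each family, the members on this list were not always the main transcript. In the Jun family, *Jund*, which is expressed without induction in most cells, made up 74.3% to 79.8% of the summed FPKM, *Jun* 18.7% to 23.9% and *Junb* 1.43% to 2.92%. In the Fos family, *Fosl2* made up 84.5% to 94.4%, whereas *Fos* made up 4.00% to 14.6% and *Fosb* at most 1.82%. *Egr1* was the main EGR transcript at 85.2% to 96.4%, and *Egr2* ranged from 0.707% to 12.3%. *Nr4a1* and *Nr4a2* were near each other, at 37.6% to 54.2% and 43.4% to 59.8%, with *Nr4a3* at 1.40% to 4.24%. *Nr4a2* was above *Nr4a1* in 3 of 4 wild-type, 1 of 3 Foxd1GC control and 3 of 3 Ntn1SPKO libraries.

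The spread between libraries of a group was near that of all genes, and for most members somewhat below that of genes of like level. The median within-group SD was 0.188 on the log2(FPKM+0.1) scale for the 8 members that averaged 0.5 FPKM or more, and 0.18 over all 14534 such genes. *Dusp1* (SD 0.117) and *Egr1* (SD 0.104) were among the steadier genes, at percentiles 16.5 and 19.3 of genes of like level. *Nr4a1* was at percentile 29.9, *Ier2* at 33.1, and *Junb* and *Atf3* each at 39.7. *Jun* (SD 0.148) was at percentile 49.9 and *Fos* (SD 0.515) at 53.6. *Egr2*, below 0.5 FPKM, had the widest spread, with an SD of 0.900 at percentile 72.4.

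**Figure D2:**
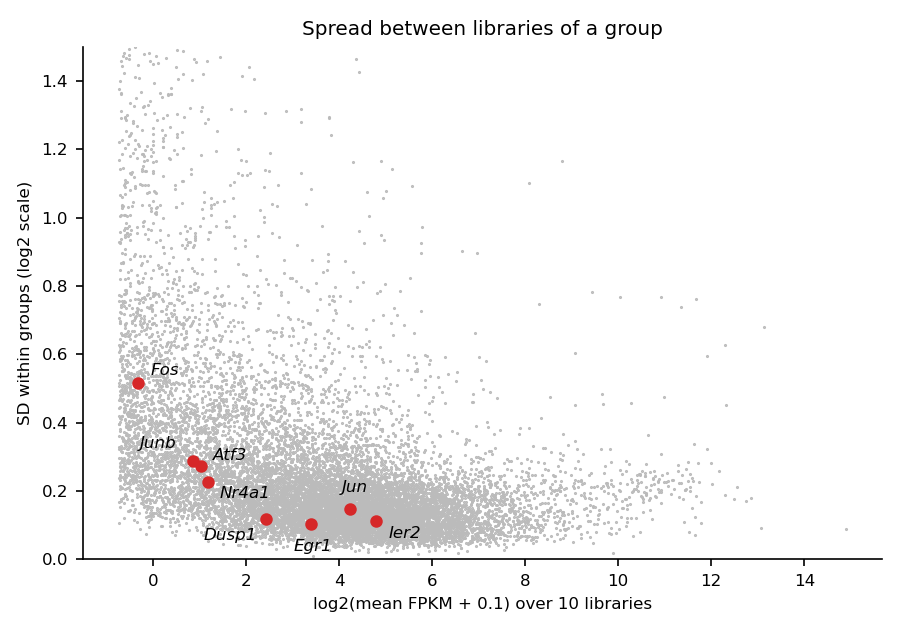
SD between libraries within groups (y axis, log2 scale, cut at 1.5) against mean level (x axis, log2) for genes averaging 0.5 FPKM or more (grey) and the 8 immediate early genes among them (red). The red points lie within the grey cloud, from 0.104 for Egr1 to 0.515 for Fos.

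Levels of the members were only weakly related to each other across libraries. Over the 45 pairs, the median Pearson r across the 10 libraries was 0.08 (range −0.58 to 0.70), with 29 positive. For the 28 pairs without *Fosb* and *Egr2*, the members below 0.5 FPKM, the median was 0.18, with 20 positive. The median over all pairs of genes averaging 0.5 FPKM or more was 0. Raw permutation p was under 0.05 for 3 pairs, and the smallest value adjusted over the 45 pairs was 0.749. The highest r was for *Fos* and *Egr1*, at 0.695 (permutation p=0.0251, two-sided, n=10, Spearman rho 0.624 with p=0.0592), but it was 0.135 without the 2 libraries farthest from the *Fos* median and so rests on them. *Junb* and *Atf3* had r=0.666 (permutation p=0.0371, n=10, rho 0.697 with p=0.0309), and 0.593 without 2 libraries. *Egr2* and *Ier2* had r=0.641 (permutation p=0.0499, n=10, rho 0.539 with p=0.114), and 0.384 without 2 libraries. Foxd1GC control replicate 3, the one with the most skeletal muscle transcripts, was above the mean of 8 members, more than any other library, and Ntn1SPKO replicate 2 was the lowest library for 4 members.

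**Figure D3:**
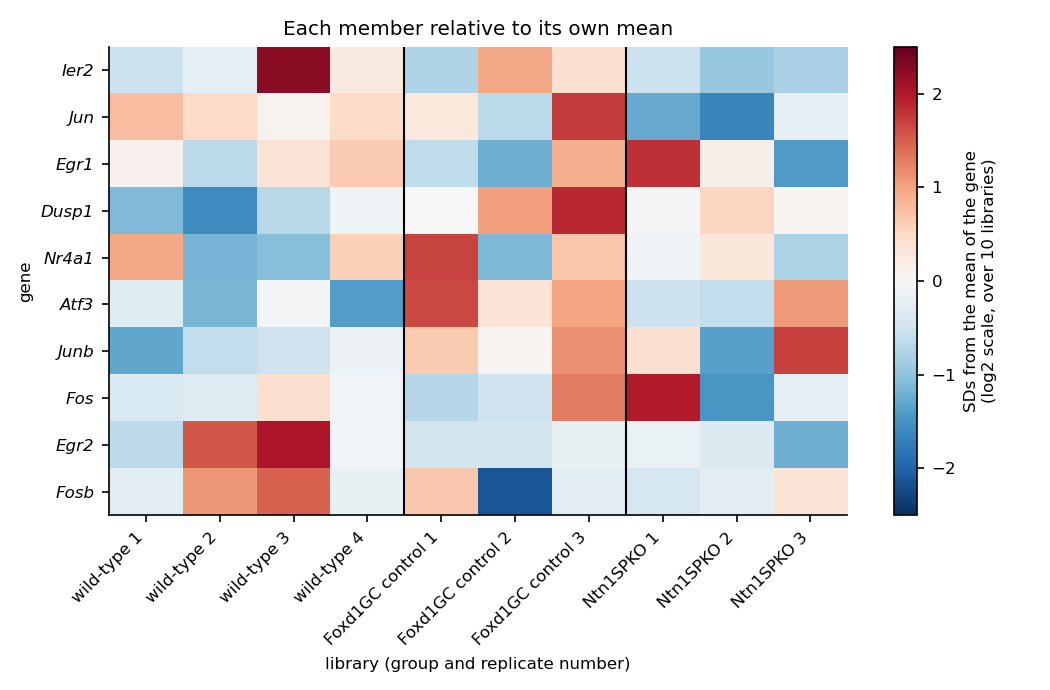
Each immediate early gene (rows) in the 10 libraries (columns, by group), as SDs from the mean of the gene over all libraries on the log2 scale, red above and blue below. Foxd1GC control replicate 3 is above the mean for 8 genes, and other libraries are mixed.

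No member passed the test between Ntn1SPKO and Foxd1GC control kidneys, which differ in *Ntn1* but share the Cre allele. Of 8 members tested, 0 were called with limma, where a call needed both a 2-fold change and an adjusted p below 0.1 (0.055% of 14550 genes were called), and 0 had an unadjusted p under 0.05 (10.7% of all genes). In 0 of 8 did the groups separate completely (19.9% of all genes). The median log2 fold change of the 8 members was −0.12, with 2 higher and 6 lower, and 0.01 over all genes tested. *Egr2* was not tested in this comparison because its mean was below 0.5 FPKM.

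*Jun* was at 15.7, 14.9 and 17.9 FPKM in Ntn1SPKO and at 19.1, 16.9 and 23.3 FPKM in Foxd1GC control kidneys. The groups overlapped, since the third mutant library was above the second control. The log2 fold change was −0.28 (standard error 0.14, 95% interval −0.61 to 0.04, limma adjusted p=0.450, exact permutation p=0.2, where 0.1 is the smallest that 3 against 3 allow). It was −0.16 without Foxd1GC control replicate 3 and −0.07 with embryo sex as a covariate. Without Foxd1GC control replicate 2 it was −0.39, with an unadjusted limma p of 0.0251, in a fit where 23.5% of all genes had a p under 0.05.

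*Fos* was at 1.33, 0.381 and 0.606 FPKM in Ntn1SPKO and at 0.508, 0.547 and 1.05 FPKM in controls. One library in each group was well above the others, and the interval of the log2 fold change (0.03) ran from −1.18 to 1.25, so that even a 2-fold difference in either direction was within it. The intervals were much narrower for *Egr1* (log2 fold change 0.05, −0.21 to 0.31), *Ier2* (−0.11, −0.29 to 0.06) and *Dusp1* (−0.14, −0.41 to 0.14). *Junb* (−0.11, −0.77 to 0.54), *Atf3* (−0.37, −0.93 to 0.19) and *Nr4a1* (−0.13, −0.60 to 0.34) lay between. For *Atf3* the log2 fold change was −0.57 without Ntn1SPKO replicate 3, with an unadjusted limma p of 0.0403.

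Ntn1SPKO kidneys were also compared with wild-type kidneys, which lack the Cre allele. Of 9 members tested, 0 were called (0.0485% of 14432 genes) and 1, *Jun*, had an unadjusted limma p under 0.05 (5.76% of all genes, 3.31% in the lower direction). The groups did not overlap for *Jun*, which was lower in the mutants, and *Dusp1*, which was higher, or 2 of 9 (7.1% of all genes, 3.54% lower and 3.56% higher). The median log2 fold change was 0.01 for the members, 0.05 without *Egr2*, and 0 over all genes. *Ntn1* was again not called, with a log2 fold change of −1.30 and an unadjusted limma p of 0.000349.

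*Jun* was at 20.5, 19.7, 18.7 and 19.7 FPKM in wild-type kidneys, all above the 3 Ntn1SPKO libraries. The means were 16.1 ± 1.58 FPKM (n=3) in Ntn1SPKO and 19.7 ± 0.719 FPKM (n=4) in wild-type kidneys, a ratio of 0.82. The log2 fold change was −0.29 (standard error 0.08, 95% interval −0.47 to −0.10, limma adjusted p=0.515, range over alternatives 0.243 to 0.995), with an exact permutation p of 0.0286, two-sided, the smallest that 3 against 4 allow. The unadjusted limma p was 0.00740, and it was 0.119 when libraries were scaled to the same summed FPKM and 0.0932 with embryo sex as a covariate. As a share of the Jun family sum, which uses the same *Jun* values, *Jun* was at 18.7% to 21.1% in mutants and 22% to 23.9% in wild-type kidneys. Foxd1GC controls, at 19.9% to 21.8%, were also below wild-type kidneys and overlapped the mutants. Of the 10 cortical stroma markers tested, 8 were lower in the same comparison and 4 had an unadjusted p under 0.05 (5.76% of all genes). They include *Foxd1*, of which the mutants have lost a copy. Summed levels of these markers were 1180 to 1310 FPKM in mutants and 1170 to 1480 in wild-type kidneys. Of 11 skeletal muscle markers tested, 10 were lower and 7 had such a p. The part of these cell types in the difference of *Jun* was not tested, and in whole kidneys fewer cells of a type and less RNA per cell cannot be told apart.

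*Dusp1* was at 5.24, 5.62 and 5.30 FPKM in Ntn1SPKO and at 4.59, 4.34, 4.83 and 5.19 FPKM in wild-type kidneys. The lowest mutant library was only just above the highest wild-type library. The log2 fold change was 0.18 (standard error 0.09, 95% interval −0.03 to 0.39, limma adjusted p=0.927, exact permutation p=0.0571). Without wild-type replicate 4 it was 0.23, with an unadjusted limma p of 0.0405.

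*Egr2*, which acts in myelinating glia and hindbrain patterning, was at 0.151, 1.08, 1.52 and 0.278 FPKM in wild-type, 0.189, 0.188 and 0.251 in Foxd1GC control and 0.253, 0.211 and 0.0691 in Ntn1SPKO kidneys. Wild-type replicates 2 and 3 were above all other libraries, whereas wild-type replicate 1 lay below most mutants and controls and replicate 4 just above them. The means were 0.758 ± 0.656 FPKM (n=4) in wild-type, 0.210 ± 0.0362 FPKM (n=3) in Foxd1GC control and 0.178 ± 0.0962 FPKM (n=3) in Ntn1SPKO kidneys. The gene passed the filter on low values only in comparisons that include wild-type kidneys, through these 2 libraries, so its values are a description and no test of it is given, although it is among the 9 members that entered those fits. The gene has 7 annotated coding transcripts of 109 to 1410 coding bases, so its FPKM also depends on how fragments were shared among them.

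The other members overlapped between Ntn1SPKO and wild-type kidneys. *Egr1* had a log2 fold change of 0.01 (95% interval −0.19 to 0.21) and *Nr4a1* of −0.01 (−0.38 to 0.36). *Junb* (0.28, −0.27 to 0.82), *Atf3* (0.25, −0.24 to 0.75) and *Fos* (0.08, −0.81 to 0.98) had wider intervals, and *Junb* was at 0.53 without Ntn1SPKO replicate 2, with an unadjusted limma p of 0.0345. *Ier2*, at 26.5, 25.6 and 26.0 FPKM in Ntn1SPKO and 26.5, 27.2, 33.3 and 28.2 FPKM in wild-type kidneys, had a log2 fold change of −0.14 (−0.34 to 0.06). With embryo sex as a covariate it was −0.35 (limma adjusted p=0.0197, less than 2-fold). In that fit 22.5% of all genes had an adjusted p under 0.1, and wild-type replicate 3, the highest *Ier2* library, was the only wild-type library with Y-linked transcripts.

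**Figure D4:**
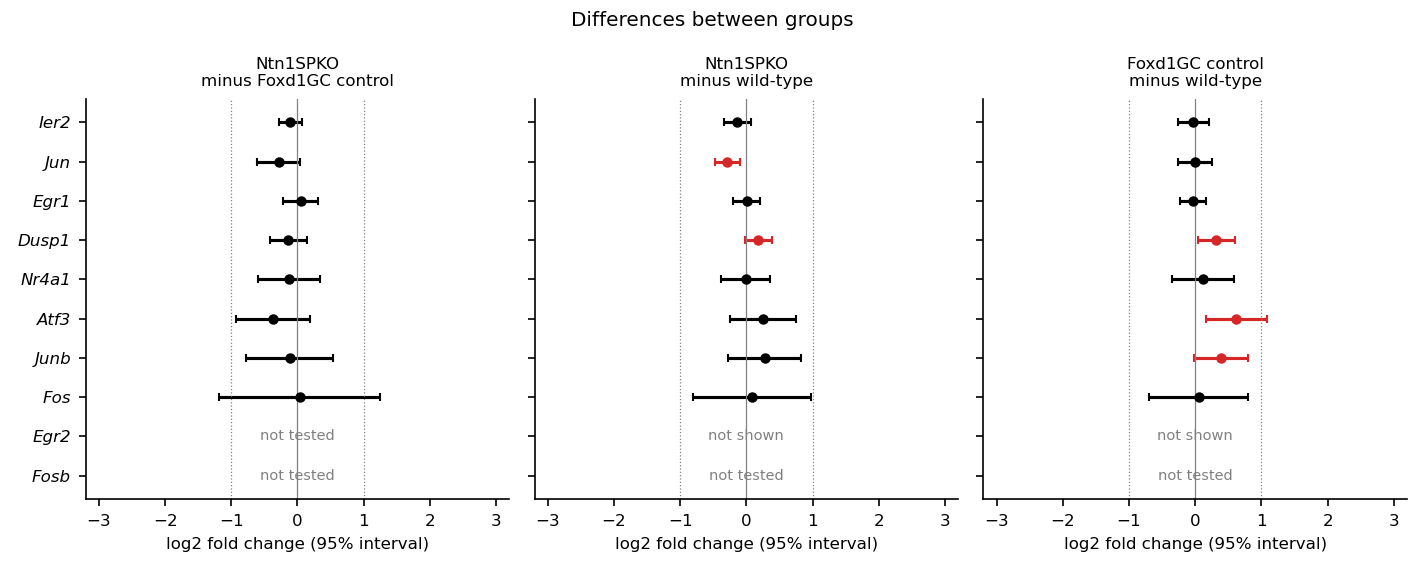
Log2 fold changes (points) with 95% intervals (bars) from limma in the 3 comparisons, with none drawn for Fosb and Egr2, and with a solid line at 0 and dotted lines at 2-fold. Red marks genes whose groups do not overlap, which are Jun and Dusp1 against wild-type for Ntn1SPKO, and Dusp1, Atf3 and Junb for Foxd1GC control.

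Foxd1GC control kidneys were compared with wild-type kidneys to show differences that come with the Cre allele, including its loss of a *Foxd1* copy. This comparison shares its libraries with both others. Of 9 members tested, 0 were called (0.00685% of 14594 genes), and 2, *Atf3* and *Dusp1*, had an unadjusted limma p under 0.05 (7.06% of all genes, 3.84% in the higher direction). The groups did not overlap for *Atf3*, *Dusp1* and *Junb*, all higher in controls, or 3 of 9 (8.09% of all genes, 4.04% in the higher direction). The median log2 fold change was 0.05 for the members, 0.09 without *Egr2*, and −0.01 over all genes.

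*Atf3*, a stress-induced repressor and activator of the ATF family, was at 2.89, 2.05 and 2.44 FPKM in Foxd1GC control and at 1.73, 1.38, 1.85 and 1.29 FPKM in wild-type kidneys. All controls were above all wild-type libraries, while the mutants (1.62, 1.59 and 2.48 FPKM) spanned both. The log2 fold change was 0.62 (standard error 0.20, 95% interval 0.16 to 1.08, 1.54-fold, limma adjusted p=0.665, range over alternatives 0.250 to 1.00, exact permutation p=0.0286). The unadjusted limma p was 0.0143, and it was 0.0662 without Foxd1GC control replicate 1.

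*Dusp1* was at 5.25, 5.97 and 6.62 FPKM in Foxd1GC control kidneys, above the 4 wild-type libraries. The log2 fold change was 0.32 (standard error 0.12, 95% interval 0.04 to 0.59, limma adjusted p=0.665, range 0.345 to 1.00, exact permutation p=0.0286). The unadjusted limma p was 0.0286, and it was 0.0650 and 0.0754 without wild-type replicate 1 or 2, and 0.0637 and 0.0890 without Foxd1GC control replicate 2 or 3.

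*Junb*, an AP-1 subunit that often opposes JUN, was at 1.96, 1.70 and 2.19 FPKM in Foxd1GC control and 1.25, 1.47, 1.5 and 1.63 FPKM in wild-type kidneys. The mutants, at 1.85, 1.23 and 2.48 FPKM, held both the lowest and the highest of the 10 libraries. The log2 fold change of controls against wild-type was 0.39 (standard error 0.17, 95% interval −0.01 to 0.79, limma adjusted p=0.665, range 0.312 to 1.00, exact permutation p=0.0286). The unadjusted limma p was 0.0561. It was 0.0162 without the intensity trend, 0.0407 with a block for replicate numbers, 0.0418 without Foxd1GC control replicate 2 and 0.147 without Foxd1GC control replicate 3.

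In the same comparison, erythroid genes were higher in controls for 10 of 10 tested, with an unadjusted p under 0.05 for 9 (7.06% of all genes). Their summed levels were 7950 to 18100 FPKM in Foxd1GC control, 4770 to 10800 in wild-type and 4890 to 18600 in Ntn1SPKO libraries, and none of the markers was at 0. Of the liver and adrenal list, only the liver genes *Alb*, *Afp*, *Apoa1* and *Apoa2* were tested, as the adrenal markers were too low. Macrophage genes were higher for 11 of 11 tested (median log2 fold change 0.20). So were skeletal muscle genes for 12 of 12 (median 0.70) and these liver genes for 4 of 4 (median 0.99). A p under 0.05 was found for 0 in each of these lists. Skeletal muscle sums ran from 96.4 to 1050 FPKM in controls, highest in replicate 3, on both sides of the 141 to 241 in wild-type libraries. The part of these cells in the differences of *Atf3*, *Dusp1* and *Junb* was not tested. Without Foxd1GC control replicate 3, the log2 fold changes were 0.62 for *Atf3*, 0.24 for *Dusp1* and 0.31 for *Junb*. *Jun* (0.00, 95% interval −0.26 to 0.26), *Egr1* (−0.04, −0.24 to 0.16), *Ier2* (−0.03, −0.26 to 0.21), *Nr4a1* (0.12, −0.35 to 0.59) and *Fos* (0.05, −0.70 to 0.80) overlapped between controls and wild-type kidneys.

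Other genes of the same pathways were taken from lists chosen by function, and 0 of them were called with limma in any of the comparisons. Among 8 tested relatives of the AP-1, EGR and NR4A genes, 0 had an unadjusted p under 0.05 in either comparison of Ntn1SPKO kidneys. Over all genes, 10.7% had such a p against controls and 5.76% against wild-type kidneys. *Nr4a2* was at 2.79 ± 0.188 FPKM (n=3) in Ntn1SPKO, 2.21 ± 0.196 (n=3) in Foxd1GC control and 2.32 ± 0.302 (n=4) in wild-type kidneys, with every mutant library above the others (log2 fold changes 0.32 and 0.26). Of all genes, 19.9% did not overlap between mutants and controls, and 7.1% between mutants and wild-type kidneys. *Fosl2* had log2 fold changes of 0.24 against controls and 0.20 against wild-type kidneys, with overlap. *Jdp2*, an AP-1 repressor, was higher in controls than in wild-type kidneys, by 0.29 ± 0.12 on the log2 scale (difference ± standard error, limma adjusted p=0.665), and its unadjusted limma p was 0.0731 without Foxd1GC control replicate 3.

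Of 38 further rapid-response genes, 34 were tested. Between Ntn1SPKO and controls, 9 were higher and 25 lower (median log2 fold change −0.09), and 1 had an unadjusted p under 0.05 (10.7% of all genes). This was the growth regulator *Myc*, at 52.7 ± 2.26 FPKM (n=3) in Ntn1SPKO, 45.6 ± 0.420 (n=3) in control and 44.3 ± 1.24 (n=4) in wild-type kidneys. The differences on the log2 scale were 0.21 from controls (limma adjusted p=0.447) and 0.25 from wild-type kidneys (limma adjusted p=0.331).

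Against wild-type kidneys, 18 of the 34 were higher and 16 lower in Ntn1SPKO, with an unadjusted p under 0.05 for 3 and 2 of them (5.76% of all genes). *Klf4*, a Kruppel-like factor, was lower at 7.07 ± 0.402 FPKM (n=3) against 11.1 ± 1.87 (n=4), or −0.63 on the log2 scale (limma adjusted p=0.250). In Foxd1GC control kidneys *Klf4* was at 14.5 ± 7.44 FPKM (n=3). Controls (7.22 to 22.1) overlapped mutants (6.62 to 7.39), and the unadjusted limma p between them was not under 0.05. The log2 fold change of mutants against controls was −0.89, and −0.51 without Foxd1GC control replicate 3. The study itself reports lower *Klf4* in Ntn1SPKO kidneys from its own RNA-seq analysis, and less KLF4 protein in stromal progenitors by immunostaining. The ligand *Hbegf* was lower than in wild-type kidneys by −0.32 on the log2 scale. The kinase *Plk2* was higher at 44.5 ± 1.52 FPKM (n=3) against 34.3 ± 1.62 (n=4), or 0.37 on the log2 scale (limma adjusted p=0.149). *Plk2* was also higher in controls than in wild-type kidneys (0.44), as were *Ccn2* (0.82), *Rhob* (0.46) and *Klf6* (0.44), the genes with an unadjusted p under 0.05 among 25 higher and 9 lower (7.06% of all genes). Each of the 4 was highest in Foxd1GC control replicate 3, the library with the most skeletal muscle transcripts. *Plk2* was at 44.5, 39.9 and 56.8 FPKM in controls, *Ccn2* at 3.93, 2.21 and 5.82, *Rhob* at 39.2, 31.3 and 57.9, and *Klf6* at 16.6, 14.0 and 23.4. The groups overlapped for *Ccn2*, which reached 2.29 FPKM in wild-type kidneys. Without that library the differences were 0.30 for *Plk2*, 0.50 for *Ccn2*, 0.22 for *Rhob* and 0.23 for *Klf6*, and 1 of the 34 genes, *Plk2*, had an unadjusted p under 0.05 (3.7% of all genes). *Ccn2*, a secreted matrix protein gene, had 0.35 for Ntn1SPKO against wild-type kidneys.

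Negative feedback genes, such as other DUSP phosphatases, Sprouty genes and the message-destabilizing *Zfp36* family, had medians of 0.06, 0.07 and −0.01 in the 3 comparisons. *Dusp5* was higher in Ntn1SPKO than in wild-type kidneys (log2 fold change 0.20, standard error 0.08, limma adjusted p=0.852). *Dusp8* was lower in Ntn1SPKO than in controls (−0.91, 0.403 ± 0.110 against 0.899 ± 0.424 FPKM, n=3 each) and higher in controls than in wild-type kidneys (0.85). *Dusp10* had −0.71 and 0.35 in the same comparisons, and the groups overlapped for *Dusp8* and *Dusp10* in both.

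Among 18 upstream factors and kinases, 11 were higher and 7 lower in Ntn1SPKO than in controls (median 0.02). The p38 kinase gene *Mapk14* was at 49.6 ± 1.38 FPKM (n=3) in Ntn1SPKO, 39.7 ± 5.21 (n=3) in control and 43.9 ± 2.91 (n=4) in wild-type kidneys, above all libraries of both groups, with log2 fold changes of 0.33 and 0.18 (limma adjusted p=0.447 and 0.783). The kinase *Rps6ka3* was higher (0.53) and *Map2k2* lower (−0.16) in Ntn1SPKO than in controls, without overlap. Of the 18 genes, 4 lay wholly higher and 1 wholly lower than controls, and 19.9% of all genes did not overlap. An unadjusted p under 0.05 was found for 2 higher and 1 lower of the 18, against 10.7% of all genes. Between controls and wild-type kidneys, *Rps6ka3* (−0.31) and the SRF cofactor *Mrtfa* (0.18) differed most, and both overlapped.

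Heat shock and unfolded protein response genes, which also respond to stress, had a median log2 fold change of 0.19 between Ntn1SPKO and controls, with 13 of 17 higher. An unadjusted p under 0.05 was found for 6 higher genes, *Hspa8* (0.27), *Hsp90aa1* (0.32), *Hspd1* (0.33), *Dnaja1* (0.19), *Hsph1* (0.27) and *Hspa1b* (0.48), and for 1 lower gene, *Hspb1* (−0.69), all without overlap (limma adjusted p=0.447 each). Over all genes, 10.7% had such a p and 19.9% did not overlap. Without Foxd1GC control replicate 3, *Hspd1* was at 0.21 with an unadjusted limma p of 0.0516 and *Hspb1* at −0.43. In that fit *Hspa5* (0.27) was among the 6 higher genes with a p under 0.05, a share of 7.23% over all genes, and the median of the list was 0.21. In the main comparison, skeletal muscle genes were lower in Ntn1SPKO for 12 of 12 tested (median −2.49, an unadjusted p under 0.05 for 5). Erythroid genes were lower for 10 of 10 (median −0.71, such a p for 0) and macrophage genes for 11 of 11 (median −0.44, 1). The liver genes tested were lower for 4 of 4 (median −1.75, 4), and no adrenal gene was tested. The part of these cell types in the differences of the heat shock genes was not tested. *Hspa8*, a constitutive chaperone, was at 3454 ± 53.0 FPKM (n=3) in Ntn1SPKO and 2873 ± 199 (n=3) in controls. *Hsp90aa1* was at 759 ± 63.0 FPKM (n=3) in Ntn1SPKO, 607 ± 50.3 (n=3) in control and 761 ± 36.0 (n=4) in wild-type kidneys, so that the controls were the low group. *Hsp90aa1* (−0.33), *Hspd1* (−0.30) and *Hsph1* (−0.19) were likewise lower in controls than in wild-type kidneys, and without Foxd1GC control replicate 3 they were at −0.26, −0.18 and −0.20. Against wild-type kidneys, the median for Ntn1SPKO was 0.03, and the gene with such a p was an entry of *Ddit3* that was listed at 0 in 3 wild-type libraries.

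**Figure D5:**
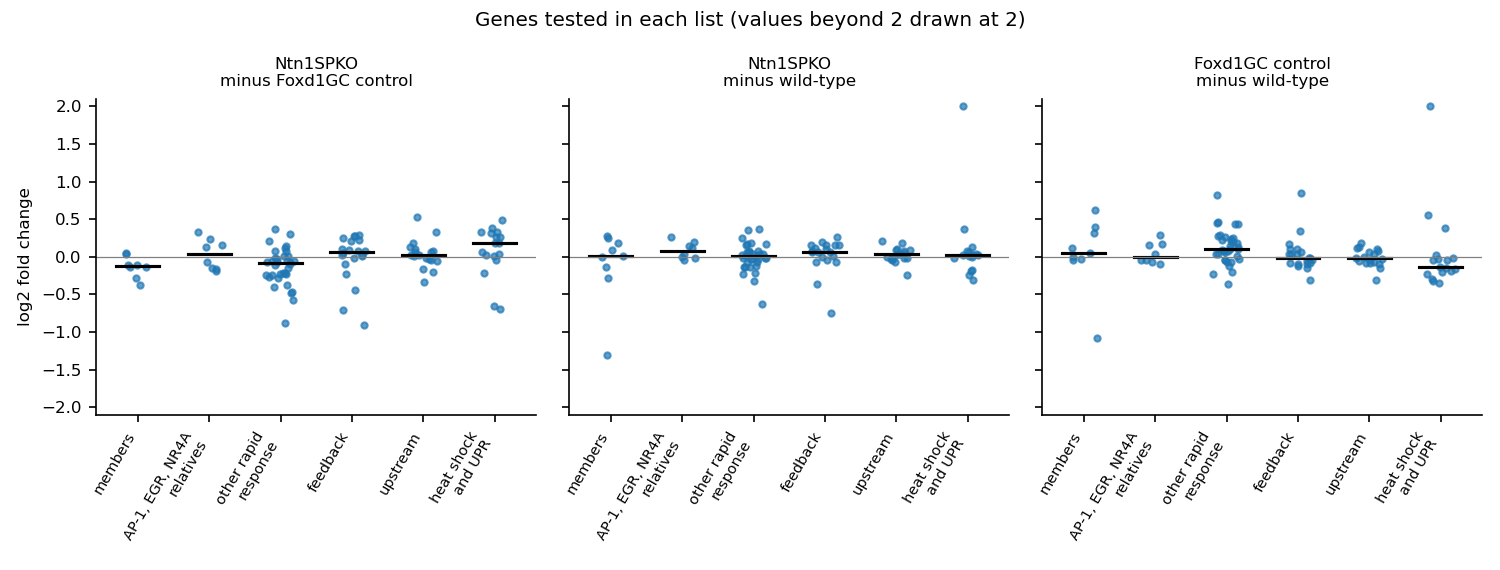
Log2 fold changes (y axis) of the tested genes of each list (points) with the median of the list (bar), in the 3 comparisons. Medians lie between −0.14 and 0.19, and the point drawn at 2 in both comparisons with wild-type kidneys is 1 of the 2 Ddit3 entries, listed at 0 in 3 wild-type libraries.

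The genes whose pattern over the 10 libraries was most like the mean of the scaled members, by Pearson r and with members left out, were *Eif6* (0.959), *Ppbp* (0.956), *Twsg1* (0.924), *Lrpap1* (0.923), *Zranb1* (0.918), *Pms1* (0.918), the pseudogene *Rpl15-ps6* (0.918), *Zfp383* (0.911), *Map1lc3a* (0.906) and *Aff3* (0.906). None of them is on the lists used here. They were picked as the highest among 14534 genes, and they describe likeness in these libraries only. The member mean itself was highest in Foxd1GC control replicate 3 (0.858 SD), followed by wild-type replicate 3 (0.426 SD), and lowest in Ntn1SPKO replicate 2 (−0.572 SD).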

How the data were processed

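Reads were converted with bcl2fastq 2.17.1.14, per the labels. According to the methods of the study, the authors quantified them with Salmon on coding sequences of GRCm38 and imported them with tximport for DESeq2. The deposited values are FPKM per gene, set to a common scale by the authors: median-of-ratios factors were 1.00 in all 10 libraries. Depth was 28 to 32 M fragments (1 M is 1000000) by a rough estimate from the smallest steps between values, and 0 per-sample columns were left out. Positions are from GENCODE M21 and RefSeq tables of GRCm38.

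Genes that averaged 0.5 FPKM or more in the libraries of a fit were compared on log2(FPKM+0.1), which understates changes of low genes, with limma 3.58.1 (R 4.3.3, eBayes with intensity trend, Benjamini-Hochberg adjustment). Only the groups compared were fitted. Two-sided exact permutation tests were run for single members, and 100000 permutations for member pairs. Named genes were all members, list genes with an unadjusted p under 0.05 or otherwise the 2 with the largest change per list and comparison, and the 10 most similar genes. Members and lists were chosen with earlier results of these data known. Alternatives were other pseudocounts, filters, scalings and fits, embryo sex, a block for replicate numbers (statmod 1.5.0) and leaving out each library. List genes were fitted without Foxd1GC control replicate 3 as an alternative added after the data were seen. Of 200 genes simulated with a log2 change of 2, 184 were recovered with 3 libraries against 3, with 10 false calls. Smaller changes, such as those of the members, were not simulated, so how often they would be recovered is not known.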

Additional observations from a re-analysis of the deposited data

How the results depend on the processing

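The count of called members was 0 in each comparison under each alternative. For members with an unadjusted limma p under 0.05, the share of all genes with such a p stands in brackets. For Ntn1SPKO against Foxd1GC control, the count was 1, *Jun*, with all 10 libraries in one fit (11%). Against wild-type it was 0 with the same summed FPKM (4.31%) and 2, *Ier2* and *Egr2* but not *Jun*, with embryo sex (30.1%). *Egr2* enters such counts only because 2 wild-type libraries brought it past the filter on low values, so it is not read as a result. Leaving out 1 library gave 0 to 1, 1 to 2 and, for Foxd1GC control against wild-type, 1 to 2. The gains were *Jun* without Foxd1GC control replicate 2 (23.5%) and *Atf3* without Ntn1SPKO replicate 3 (7.91%) against controls, and *Egr2* without wild-type replicate 1 (5.24%), *Dusp1* without wild-type replicate 4 (6.17%) and *Junb* without Ntn1SPKO replicate 2 (4.13%) against wild-type. For controls against wild-type, 1 was left without wild-type replicate 2 (4.29%) or Foxd1GC control replicate 1 (4.52%) or 3 (3.7%), and *Junb* made it 3 without the intensity trend (6.92%) or with the replicate block (9.39%). The cause was not tested.

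Log2 fold changes near 0 changed sign. For Ntn1SPKO against controls, *Junb* was 0.016 with quantile normalization and 0.064 with embryo sex, and *Nr4a1* 0.191 with embryo sex. Leaving out 1 library gave −0.397 to 0.388 for *Fos*, −0.340 to 0.136 for *Junb*, −0.030 to 0.122 for *Egr1* and −0.289 to 0.003 for *Nr4a1*. Against wild-type, embryo sex gave −0.144 for *Fos*, −0.014 for *Egr1* and 0.179 for *Nr4a1*, quantile normalization −0.001 for *Egr1* and 0.024 for *Nr4a1*, and the same summed FPKM 0.045 for *Nr4a1*. Leaving out 1 library gave −0.347 to 0.438 for *Fos*, −0.070 to 0.082 for *Egr1* and −0.077 to 0.070 for *Nr4a1*. For controls against wild-type, *Fos* was −0.044 with quantile normalization, and *Jun* 0.018 with the same summed FPKM and 0.014 with embryo sex. Leaving out 1 library gave −0.241 to 0.218 for *Fos*, −0.126 to 0.103 for *Jun*, −0.097 to 0.002 for *Egr1*, −0.071 to 0.044 for *Ier2*, −0.011 to 0.281 for *Nr4a1* and −0.057 to 0.485 for *Ntn1*.

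Same-numbered libraries were only weakly alike. Their deviations had correlations of −0.039 to 0.078, against −0.115 to 0.056 for differently numbered libraries. Between wild-type and control libraries the same-numbered correlations were 0.078, 0.033 and 0.057, and the block fit of this comparison estimated a correlation of 0.158. With the replicate block, the unadjusted limma p of *Junb* for controls against wild-type was 0.0407, with a log2 fold change of 0.398, and no other member crossed 0.05. Depth limits the low members, with at most 5 rough fragments per library for *Fosb*, 46 for *Fos*, 47 for *Atf3*, 66 for *Egr2* and 72 for *Junb*. Wild-type replicate 3 is the one wild-type library with Y-linked transcripts, so sex-adjusted differences from wild-type rest on it. Those of Ntn1SPKO from Foxd1GC control rest in the same way on Foxd1GC control replicate 2.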

Other observations

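*Ddit3*, a transcription factor gene of the unfolded protein response, stands under 1 symbol on 2 entries of the table. The first was at 4.32 to 7.84 FPKM over the 10 libraries. The second, which has the higher mean and was used in the list, was listed at 0 in wild-type replicates 1, 2 and 4 and at 21.1 FPKM in wild-type replicate 3. It was at 7.42, 14.2 and 24.6 FPKM in Foxd1GC control and at 44.0, 14.6 and 8.13 FPKM in Ntn1SPKO kidneys, or above 0 in 7 of 10 libraries. No fold is given against values listed at 0. The table does not tell what separates the entries, and the cause was not tested.

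The genes with the pattern most like *Egr2* over the 10 libraries were looked up after its values were seen. They were *Mthfs* (Pearson r 0.908), *Tmem68* (0.894), *Kbtbd2* (0.892), *Sdhaf2* (0.888) and *Rfc3* (0.887). *Mthfs*, a folate metabolism enzyme gene, was at 6.94, 16.6, 18.0 and 10.1 FPKM in wild-type, 8.61, 11.6 and 11.1 in Foxd1GC control and 8.14, 7.95 and 5.39 in Ntn1SPKO kidneys. As with *Egr2*, wild-type replicates 2 and 3 were the highest libraries.

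Endothelial genes had a median log2 fold change of 0.23 for Ntn1SPKO against wild-type, and of 0.03 against Foxd1GC control kidneys. Against wild-type, 9 of 10 were higher and 2 had an unadjusted limma p under 0.05 (5.76% of all genes). Nephron progenitor genes had medians of 0.11 and 0.05 in these comparisons.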
